A study of Mus musculus with 2 samples.

Results

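The clustered protocadherins are cell surface adhesion proteins encoded by the tandem gene arrays Pcdha, Pcdhb and Pcdhg on mouse chromosome 18. Their genes were taken as the annotated gene rows whose Ensembl identifier carries an alpha, beta or gamma cluster symbol, and 58 of 43346 annotated rows met that rule. They comprised 22 gamma members (12 of the A type, 7 of the B type and 3 C-type genes), 14 alpha members (12 alternate and 2 C-type genes) and 22 beta members. On mm10 the alpha members lie between bases 36930184 and 37187661, the beta members between 37264938 and 37524479, and the gamma members between 37661793 and 37841873, all on the plus strand.

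In the alpha and gamma clusters each member has its own promoter and a large variable exon, which encodes the extracellular and transmembrane part of the protein and is spliced to constant exons shared by the whole cluster. Beta genes have a single large exon and no constant exons. In mouse neurons promoter choice, guided by DNA methylation, Ctcf and cohesin, gives cells different sets of alternate isoforms, and the proteins bind the same isoform on a neighbouring membrane, which underlies self-avoidance of neurites and, for the gamma cluster, survival of neurons.

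RNA was sequenced from forebrains of mouse embryos of the strain B6NCrl at 10.5 days, when the forebrain wall is largely made of dividing progenitors. Replicate 1 was a pool of 69 embryos and replicate 2 a separate pool of 51 embryos, males and females together in each, and both libraries were made from 10 ng of total RNA with spike-ins. These 2 libraries formed the only group, with no other genotype, stage, tissue or treatment, so members were compared within a library and between the libraries. An exact sign flip over a pair of libraries gives no two-sided p under 0.5, and no p-value is given.

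The tables held 43021202 expected counts (reads estimated per gene) in replicate 1 and 39215064 in replicate 2. The labelled tissue was checked against markers: 6 of 6 forebrain factors, among them Lhx2 at 91.7 and 98.3 TPM in replicates 1 and 2, were detected, while 0 of 9 Hox genes of hindbrain and spinal cord were, 5 of them at 0 counts in both libraries. Markers of mesenchyme, endothelium, red cells, macrophages and surface epithelium were also all detected. In such bulk RNA, fewer cells that express a gene and less RNA per cell cannot be told apart.

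Detection was confined to the gamma cluster at the limit of 1 TPM (a share of all transcripts, adjusted for length) in both libraries. At that limit 18 of 58 members were detected, against a background of 32.4% of all annotated genes and 57.3% of protein-coding genes. The detected members were 18 of 22 gamma, 0 of 14 alpha and 0 of 22 beta genes. By this count the gamma cluster lay above the background and the alpha and beta clusters below it.

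Gamma transcripts made up nearly all clustered protocadherin RNA. The summed level of all 58 members was 117.7 TPM in replicate 1 and 115.4 TPM in replicate 2, of which gamma members held 112.8 and 111.9 TPM, alpha members 1.45 and 0.89 TPM, and beta members 3.52 and 2.65 TPM. As shares this was 96.4% ± 0.816 for gamma, 1.00% ± 0.326 for alpha and 2.64% ± 0.491 for beta (SD, n = 2 libraries). A sum of counts over a cluster does not depend on how reads of constant exons were divided between its members, whereas a sum of TPM does, since the members' transcripts differ in length. Shares of summed expected counts were nearly the same, at 96.3% for gamma, 1.35% for alpha and 2.30% for beta.

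The gamma median differed from the alpha and beta medians by more than the spread between the libraries. The median gamma member was at 2.02 TPM in replicate 1 and 1.93 TPM in replicate 2, the median alpha member at 0.065 and 0.04 TPM, and the median beta member at 0.11 and 0.07 TPM. The gap between gamma and beta medians on the log2(TPM + 0.1) scale was 3.46 ± 0.17 (SD, n = 2), and that between gamma and alpha was 3.77 ± 0.12. Alpha lay 0.31 ± 0.05 below beta on the same scale, where the SD is that of the gap within a library. Both medians were lower in replicate 2. The alpha median of replicate 1 (0.065 TPM) was close to the beta median of replicate 2 (0.07 TPM). The alpha and beta medians are near or under the pseudocount of 0.1 TPM, which sets much of the size of all 3 gaps: with 1 TPM they were 1.45 for gamma minus beta, 1.50 for gamma minus alpha and -0.05 for alpha minus beta.

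Individual values overlapped little between gamma and the other clusters. Gamma members ranged over 0.28 to 34.6 TPM in replicate 1 and 0.41 to 32.3 TPM in replicate 2, alpha members over 0 to 0.41 TPM and 0 to 0.44 TPM, and beta members over 0 to 0.64 TPM and 0 to 0.41 TPM. Pcdhga1, the first gene of its cluster, was the gamma member that lay inside the alpha and beta ranges in both libraries, with 0.28 TPM in replicate 1 and 0.41 TPM in replicate 2.

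**Figure D1:**
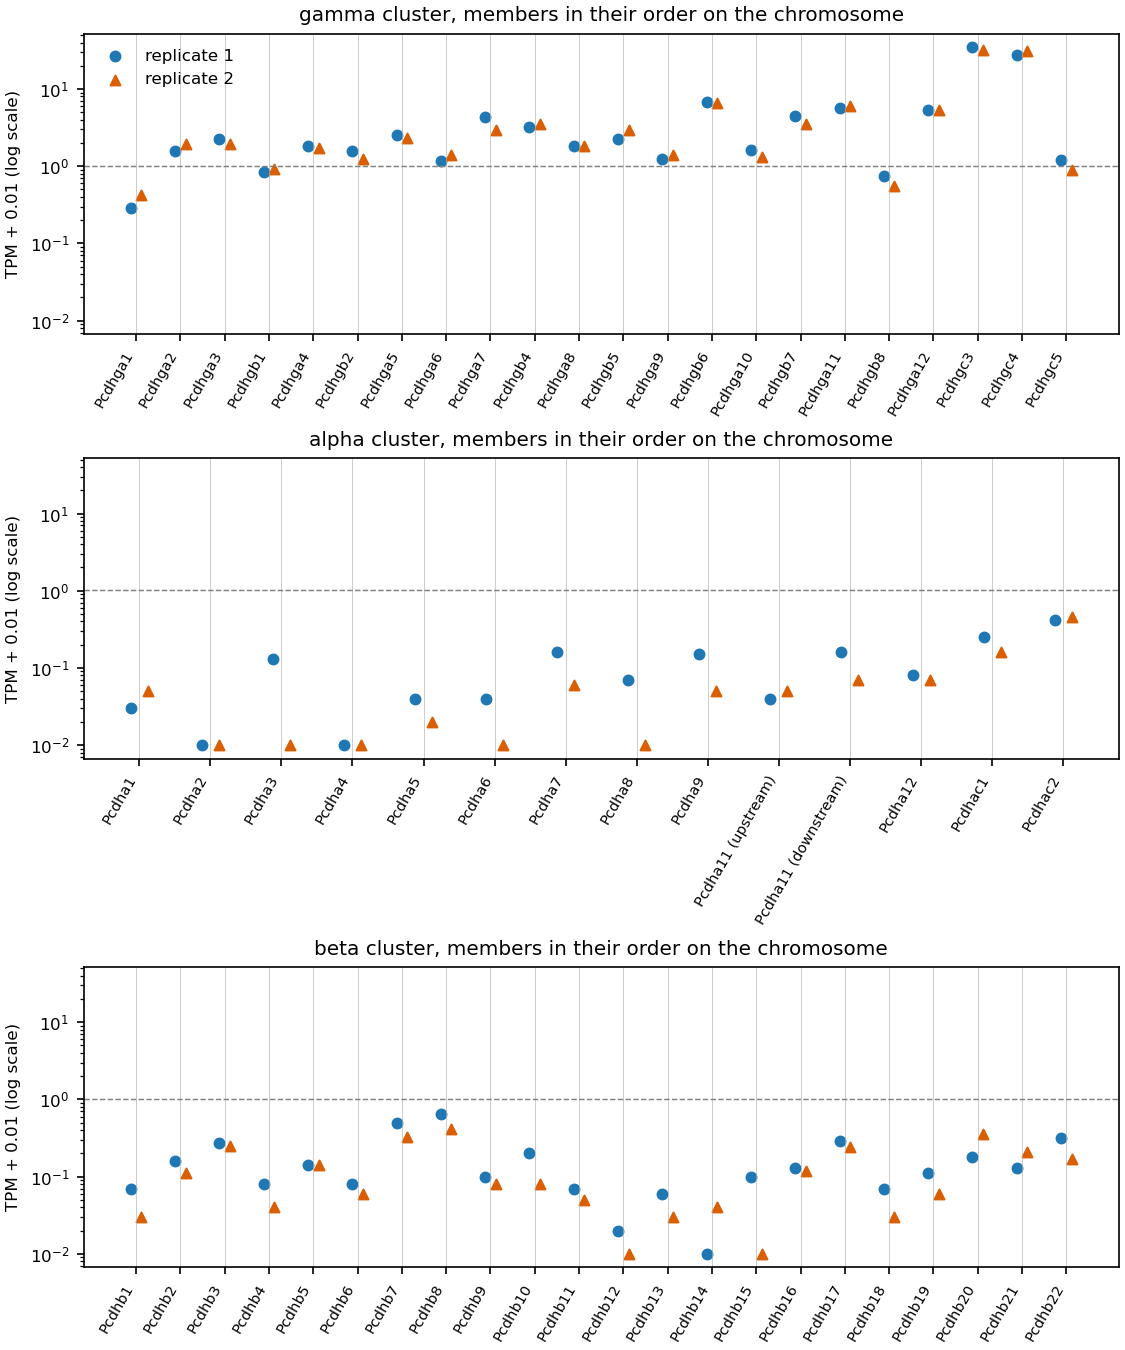
Level of each clustered protocadherin, with members left to right in their order on the chromosome and TPM plus 0.01 on a log axis (points at the bottom are 0 TPM). Circles are replicate 1, triangles replicate 2 and the dashed line 1 TPM; Pcdhgc3 and Pcdhgc4 stand at 27.9 to 34.6 TPM, while every alpha and beta member lies under 1 TPM.

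Within the gamma cluster, the C-type genes Pcdhgc3 and Pcdhgc4 had the highest levels. C-type isoforms resemble each other across clusters and are regulated separately from the alternate ones in mouse neurons. Pcdhgc3, which promotes dendrite branching in mouse cortical neurons, had 34.6 TPM in replicate 1 and 32.3 TPM in replicate 2, on 4275.55 and 3651.68 expected counts. Pcdhgc4, the gamma isoform that supports neuron survival in mice, had 27.9 TPM in replicate 1 and 31.4 TPM in replicate 2, on 1807.53 and 1827.80 counts. Together these genes held 53.0% of all clustered protocadherin TPM in replicate 1 and 55.1% in replicate 2, and 47.4% and 48.9% of the counts. The level of Pcdhgc4 rests on a transcript with 153 bases outside the constant exons, without which it was 3.84 TPM in replicate 1 and 4.33 TPM in replicate 2, inside the range of the alternate gamma genes. Pcdhgc3 was the higher of the pair in both libraries, but in replicate 2 the gap between them was smaller than the change of either gene between the libraries.

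The third gamma C-type gene was much lower. Pcdhgc5, whose protein binds GABA-A receptors in rodent neurons, had 1.20 TPM in replicate 1 and 0.87 TPM in replicate 2. It therefore passed 1 TPM in replicate 1 and not in replicate 2. The alpha C-type genes were low too: Pcdhac2, needed for the spread of serotonergic axons in mice, had 0.41 and 0.44 TPM, and Pcdhac1 had 0.24 and 0.15 TPM. They were nevertheless the highest alpha members in both libraries. Over all 5 C-type genes the median was not separable from that of the 31 alternate genes, with a difference of -0.20 ± 0.38 on the log2(TPM + 0.1) scale and opposite signs in the libraries (0.07 in replicate 1 and -0.47 in replicate 2). With means over members in place of medians, the difference was 1.93. Within each cluster the C-type median was the higher one in both libraries. In gamma it was 27.86 and 31.35 TPM, against 1.83 and 1.93 TPM for the alternate genes in replicates 1 and 2. That gamma value is the level of Pcdhgc4, which was 3.84 and 4.33 TPM without its transcript of mostly constant exons. In alpha the C-type median was 0.325 and 0.295 TPM, against 0.045 and 0.025 TPM.

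**Figure D2:**
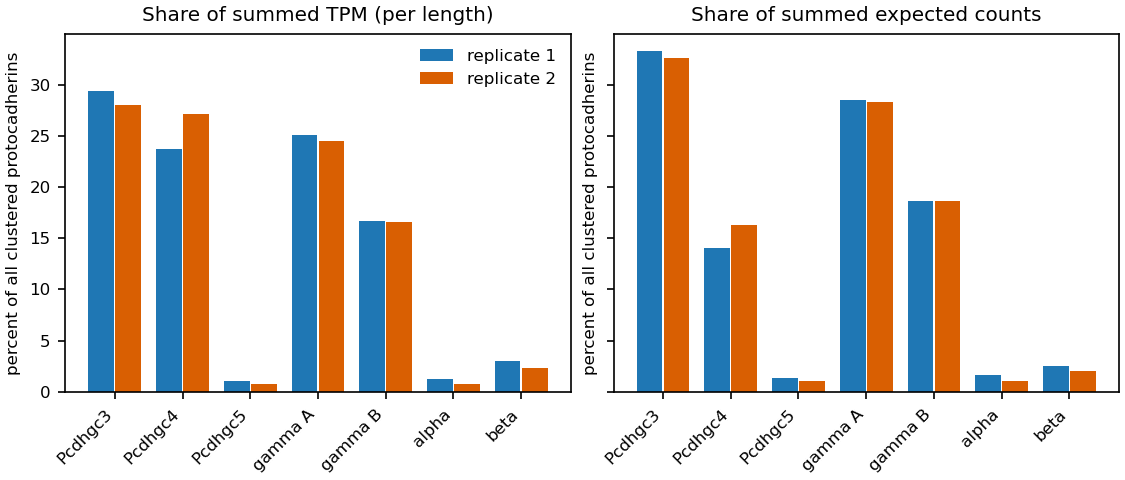
Share of all clustered protocadherin TPM (left) and of expected counts (right), in percent, held by each gamma C-type gene, the gamma A and B types and the alpha and beta clusters; bars are the 2 libraries. Pcdhgc3 takes about the same share on both scales (28.0% to 33.3%), while Pcdhgc4 takes 23.7% and 27.2% of TPM but 14.1% and 16.3% of counts.

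Alternate gamma genes had low, graded levels, and those of the A and B types overlapped. The 12 A-type genes summed to 29.5 TPM in replicate 1 and 28.3 TPM in replicate 2, and the 7 B-type genes to 19.7 and 19.1 TPM. Medians were 1.81 and 1.87 TPM for the A type and 2.22 and 2.91 TPM for the B type. The highest alternate gene was Pcdhgb6, with 6.69 TPM in replicate 1 and 6.49 TPM in replicate 2. Pcdhga11 had 5.67 and 5.93 TPM, and Pcdhga12 had 5.28 TPM in both libraries. These 3 genes lie in the downstream end of the alternate array, as does Pcdhgb7 with 4.40 and 3.48 TPM. Pcdhga10 and Pcdhgb8 lie in the same stretch at lower levels, of 0.55 to 1.59 TPM. Pcdhga7, with 4.31 and 2.90 TPM, lies nearer the middle. Some of these levels include transcripts without constant exons. In Pcdhga12 a retained-intron transcript held 2.35 and 2.48 TPM. Its transcript with constant exons held 2.94 and 2.80 TPM, less than the level of Pcdhgb7. In Pcdhga7 a transcript without constant exons held 1.89 and 1.33 TPM.

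The lowest detected gamma members were Pcdhga6 with 1.14 and 1.38 TPM, Pcdhga9 with 1.23 and 1.37 TPM, and Pcdhgb2 with 1.56 and 1.24 TPM in replicates 1 and 2. Their order among each other changed between the libraries. Besides Pcdhga1, members under 1 TPM in both libraries were Pcdhgb1, with 0.84 and 0.92 TPM, and Pcdhgb8, with 0.74 and 0.55 TPM. Pcdhgb8 is annotated as a polymorphic pseudogene. The remaining alternate gamma genes lay between these and the highest ones, at 1.29 to 3.51 TPM.

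Neighbouring genes in the ranking were often inseparable, but the ranking as a whole was kept in the gamma cluster. Spearman's rho of TPM between the libraries was 0.96 over 22 gamma members, 0.88 over 22 beta members and 0.74 over 14 alpha members, as a description of genes measured in the same pair of libraries. Levels of the 19 alternate gamma genes tended to be higher towards the constant exons, with a rho between TPM and position of 0.45 in replicate 1 and 0.42 in replicate 2. For the 22 beta genes rho was 0.02 and 0.06. Among 12 alternate alpha genes it was 0.61 and 0.63, on at most 21.09 counts per gene.

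Alternate alpha genes were close to the detection floor. The 12 of them summed to 106.21 expected counts in replicate 1 and 40.05 in replicate 2. The row with the highest level was Pcdha11 (ENSMUSG00000102206), with 0.15 and 0.06 TPM, followed by Pcdha7 with 0.15 and 0.05 TPM and Pcdha9 with 0.14 and 0.04 TPM. Each of these genes was more than 2-fold higher in replicate 1. Pcdha2 and Pcdha4 had expected counts of 0 in both libraries. In replicates 1 and 2, 3 counts would stand at 0.0221 and 0.0245 TPM for Pcdha2 and 0.0269 and 0.0298 TPM for Pcdha4. These levels cover counting error only and are no upper limit, since reads of shared exons may have been given to other members. Posterior mean counts were 1.16 and 1.11 for Pcdha2 and 2 and 1.57 for Pcdha4, with posterior SDs of 1.26 to 1.9.

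The other alternate alpha genes were low in both libraries or had counts in replicate 1 alone. Pcdha3, Pcdha6 and Pcdha8 had 17.92, 3.98 and 8.21 expected counts in replicate 1 and 0 in replicate 2. Pcdha1, Pcdha5, Pcdha12 and the other row named Pcdha11 (ENSMUSG00000007440) had levels of 0.01 to 0.07 TPM. Both Pcdha11 rows carry the same symbol in the annotation, and the RefSeq table places Pcdha10 where ENSMUSG00000007440 lies, so that row may be read under either name.

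Beta genes were low, but their counts were mostly their own reads. The highest were Pcdhb8, with 0.64 and 0.41 TPM, Pcdhb7, with 0.49 and 0.32 TPM, and Pcdhb20, with 0.17 and 0.35 TPM in replicates 1 and 2. Counts behind them were 30 and 22.70 for Pcdhb8, 46 and 27 for Pcdhb7, and 16 and 30 for Pcdhb20. Next came Pcdhb17 with 0.28 and 0.23 TPM, Pcdhb3 with 0.26 and 0.24 TPM, and Pcdhb22 with 0.31 and 0.16 TPM. The rank of Pcdhb8 above Pcdhb7 rests on a transcript of 462 bases with few counts. Its transcript of 3334 bases stood at 0.30 and 0.27 TPM, below Pcdhb7. At the low end Pcdhb12 had 1 count in replicate 1 and 0 in replicate 2, Pcdhb14 had 0 and 6 counts, and Pcdhb15 had 7 and 0 counts. No beta gene was at 0 in both libraries.

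The remaining beta genes had levels of 0.02 to 0.20 TPM, on 1 to 22.74 counts. All of their levels fell in the range where a few reads decide the order: Pcdhb2, Pcdhb5, Pcdhb10, Pcdhb16 and Pcdhb21 each averaged over 0.1 TPM, and Pcdhb1, Pcdhb4, Pcdhb6, Pcdhb9, Pcdhb11, Pcdhb13, Pcdhb18 and Pcdhb19 each averaged less.

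Whether a count is whole shows how far the estimate had to divide reads. In replicate 1 the expected count was not whole in 22 of 22 gamma members, in 12 of 12 alpha members above 0 and in 4 of 21 beta members above 0, against a background of 27.9% of all genes above 0. In replicate 2 these were 22 of 22, 9 of 9 and 4 of 20, against 27.8%. Gamma and alpha members thus had fractional counts far above the background, and beta members did not. The deposited posterior SD of the count was taken as a percent of the posterior mean count, over members with a count above 0. In replicates 1 and 2 its median was 4.88% and 5.07% in gamma members, 26.4% and 29.4% in alpha and 0% in beta. Alpha members at 0 counts, left out of these medians, had 92.7% to 163%.

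Much of the sequence of alpha and gamma transcripts is common to their cluster. In GENCODE M21 the gamma constant exons are chr18:37825021-37825079, chr18:37833265-37833353 and chr18:37839903-37841873, with 59, 89 and 1971 bases. Those of alpha are chr18:37156155-37156213, chr18:37159265-37159353 and chr18:37184946-37187657, with 59, 89 and 2712 bases. They made up a median 44.9% of the length of gamma transcripts that join a variable exon to constant exons, and 53.3% in alpha transcripts of that kind. By sequence, a median 44.1% of 100-base windows of these gamma transcripts also occurred in another member, 54.4% in alpha and 0.083% in beta transcripts. A read that lies inside such a window fits more than 1 member.

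Transcript estimates show that Pcdhgc4 rests on a transcript made almost entirely of constant exons. Its leading transcript, ENSMUST00000195239.1, has 2272 bases, of which 2119 are constant and 153 are its own. It held 86.2% of the gene's TPM in each library, with 24.0 TPM in replicate 1 and 27.0 TPM in replicate 2. The transcript with the full variable exon, ENSMUST00000066140.8, held 2.99% and 2.60%, with 0.83 and 0.81 TPM, and a retained-intron transcript of 3100 bases without constant exons held 10.8% and 11.2%, with 3.0 and 3.51 TPM. Whether the reads assigned to that transcript came from the Pcdhgc4 promoter was not tested. The labels do not say how the cDNA was primed, and evenness of coverage along transcripts was not tested either.

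Pcdhgc3 had the opposite make-up. Its leading transcript, ENSMUST00000076807.6, joins 2568 bases of its own to all 2119 constant bases and held 89.7% of the gene's TPM in replicate 1 and 95.4% in replicate 2, at 31.0 and 30.8 TPM. A transcript annotated for nonsense-mediated decay held 8.78% and 4.06%. For Pcdhgc5 a retained-intron transcript led, with 51.3% and 72.6%, and the full transcript held 48.7% and 24.6%. Over the gamma cluster, 24 transcripts with variable and constant exons held 68.2% and 64.6% of TPM, 3 mostly constant transcripts 21.3% and 24.2%, and 11 transcripts without constant exons 10.5% and 11.2%.

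**Figure D3:**
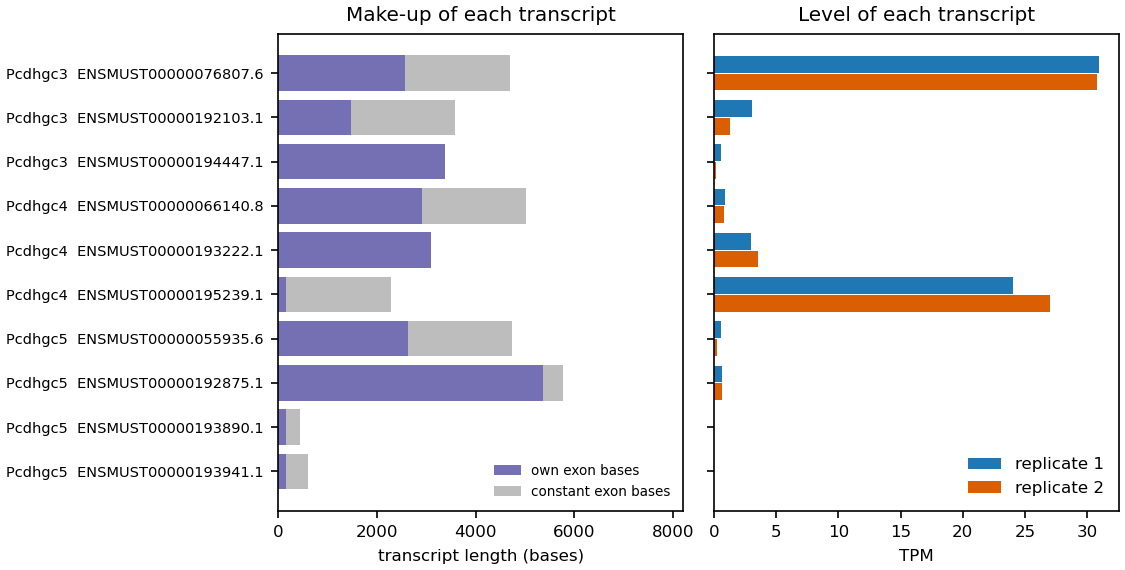
Annotated transcripts of the gamma C-type genes, with the bases of their own exons and of the constant exons (left, bases) and their level in each library (right, TPM). The Pcdhgc4 transcript with 153 bases of its own reaches 24.0 and 27.0 TPM, while the one with the full variable exon stays at 0.83 and 0.81 TPM.

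Among 18 members with several annotated transcripts and a level above 0 in both libraries, 14 had the same leading transcript in each. The 4 others were Pcdhgb2, Pcdha11 (ENSMUSG00000102206), Pcdhb2 and Pcdhb8. In Pcdhgb2 the transcript with constant exons led in replicate 1, with 60.8% of the gene's TPM, and a retained-intron transcript led in replicate 2, with 64.1%. In Pcdhb8 a transcript of 462 bases led in replicate 1 with 53.2%, on 3.40 counts, and the one of 3334 bases led in replicate 2 with 65.0%. The switch in Pcdhb2 rested on 2 counts in replicate 2, and that in the Pcdha11 row on 6.15 counts.

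Genes that overlap members can also share their reads, since the sources used here do not state whether counting used strand. On the minus strand, Gm26672 overlaps exons of Pcdhga10, Pcdhgb7, Pcdhga11 and Pcdhga12 and had 172.78 expected counts in replicate 1 and 100.45 in replicate 2. BC037039 overlaps Pcdhgc3, with 162.32 and 193.62 counts, and Gm37165 overlaps Pcdhga7 and Pcdhga8, with 17.16 and 20.94 counts. Gm10544 overlaps the Pcdha11 row ENSMUSG00000102206, with 73 and 42 counts, more than the member itself. The annotated read-through genes that join an alpha variable exon to gamma exons, Gm42416, Gm37013 and Gm37388, had 0 counts in both libraries.

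Between the libraries the gamma cluster was nearly level, while alpha and beta sums were higher in replicate 1. Ratios are replicate 1 over replicate 2, after scaling by TMM library sizes. The summed gamma count was 12311 in replicate 1 and 10852 in replicate 2, a ratio of 1.03 (95% exact binomial interval 1.01 to 1.06, counting error only). The summed alpha count was 206.69 and 122.63, a ratio of 1.53 (1.22 to 1.93), and the summed beta count was 326 and 231, a ratio of 1.28 (1.08 to 1.53). Within alpha the ratio was 1.11 (0.81 to 1.48) for the C-type genes and 2.41 (1.66 to 3.56) for the alternate genes. The alternate counts are divided estimates, and these intervals leave out the error of that division. Over alternate alpha genes with a count above 0, the median posterior SD was 30.3% and 35.4% of the posterior mean count in replicates 1 and 2. It was larger in those at 0 counts. These ratios compare 1 pool with 1 pool and no conditions.

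Single members were compared where the mean count was 10 or more, which 37 of 58 reached (22 gamma, 5 alpha and 10 beta genes). Of these 5 differed by over 2-fold, against a background of 3.28% of 17174 genes. All 5 had a mean count of 10 to 50, where the background was 14.5% of 3332 genes and 15 members were compared. They were Pcdha7 with 21.09 and 7.10 counts, Pcdha9 with 19.65 and 5.77 counts, Pcdha11 (ENSMUSG00000102206) with 14.40 and 6.15 counts and Pcdhb22 with 29 and 12.26 counts, each higher in replicate 1, and Pcdhb20 with 16 and 30 counts, higher in replicate 2. In the gamma cluster 0 of 22 genes passed 2-fold, and the extreme ratios were 1.51 (1.30 to 1.76) for Pcdhga7 and 0.77 (0.66 to 0.91) for Pcdhgb5. All gamma genes but Pcdhga1 had a mean count of 50 or more, where the background was also low, at 81 of 13842 genes. The median log2 ratio of the 37 members was 0.13, against 0.0019 over all genes compared, and 24 of them were higher in replicate 1, against a background of 50.3%. For the 15 members at 10 to 50 counts the median was 0.31 with 11 higher, against 0.070 and 54.7% of genes in that range. For the 22 members at 50 counts or more it was 0.0496 with 13 higher, against -0.0021 and 49.3%.

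Neuronal markers moved the same way as the alpha and beta sums. All 8 neuron markers were higher in replicate 1, with summed levels of 427.6 TPM there and 333.4 TPM in replicate 2 and a median log2 ratio of 0.37. Red cell markers were also higher in 4 of 4 genes, with summed levels of 17288 and 12801 TPM and a summed count ratio of 1.36, while progenitor markers were higher in 5 of 6 genes at a summed ratio of 1.06. The part of neurons or red cells in the alpha and beta difference was not tested.

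**Figure D4:**
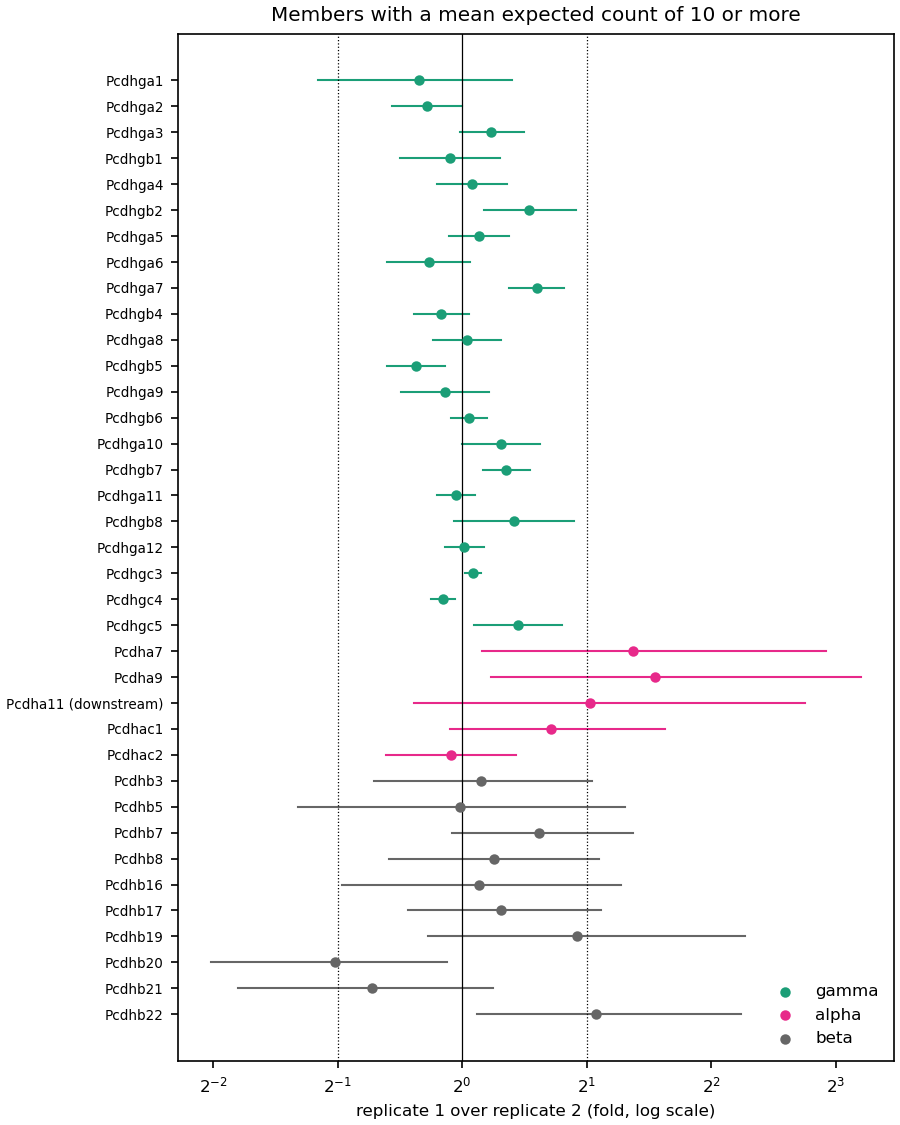
Replicate 1 over replicate 2 (fold, log axis) for the 37 members with a mean expected count of 10 or more, with 95% exact binomial intervals that cover counting error only; dotted lines mark 2-fold in either direction. Gamma genes stay between 0.77 and 1.51, and the 5 genes past 2-fold are alpha and beta genes with wide intervals.

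Protocadherins outside the clusters, which have a locus each, were mostly detected. Of 12 such genes, mostly of the delta type, 10 were detected, against a background of 57.3% of protein-coding genes. They were led by Pcdh18 with 49.1 and 50.8 TPM, Pcdh9 with 25.8 and 25.9 TPM, and Pcdh19 with 10.3 and 10.5 TPM in replicates 1 and 2. Pcdh15, a part of hair cell tip links, had 0.19 and 0.32 TPM. Their summed level was close to that of all clustered genes, at 117.7 and 115.4 TPM for the 58 clustered genes and 107.8 and 108.6 TPM for the 12 others. The median clustered gene minus the median gene of that list was -3.55 ± 0.13 on the log2(TPM + 0.1) scale. Over genes at 1 TPM or more in both libraries alone, it was -0.48.

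Genes whose products regulate the clusters were detected in 22 of 22 cases, against a background of 57.3% of protein-coding genes. The median of that list was 43.7 ± 0.311 TPM. The insulator protein gene Ctcf, which links cluster promoters to enhancers, had 125.0 and 123.1 TPM in replicates 1 and 2. Trim28, a corepressor, led at 353.6 and 358.5 TPM. The maintenance methyltransferase gene Dnmt1 had 123.0 and 126.7 TPM, a level not separable from that of Ctcf. Dnmt3b, which methylates promoters of these clusters in mouse embryos, had 22.8 and 21.2 TPM, and Smchd1, which represses them in mice, had 53.8 and 53.6 TPM. None of the 22 differed by over 2-fold between the libraries, as was so for most genes at a mean count of 50 or more. There, 81 of 13842 genes passed 2-fold.

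Genes of binding partners and processing enzymes were detected in 19 of 21 cases, against 57.3% of protein-coding genes, and their median was 40.8 ± 1.73 TPM. The highest were the GTPase gene Rac1 with 221.7 and 235.2 TPM, Marcks with 108.4 and 112.0 TPM, and the gamma-secretase subunit Ncstn with 80.8 and 78.4 TPM. Adam10, which sheds the extracellular part, had 51.3 and 54.3 TPM. Genes of kinases that bind gamma and alpha proteins had unlike levels: Ptk2 had 62.3 and 64.6 TPM, while Ptk2b had 0.56 and 0.40 TPM. Ret, a receptor kinase that associates with alpha and gamma proteins, was also under 1 TPM, with 0.37 and 0.30 TPM.

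Other homophilic adhesion genes were detected in 11 of 18 cases, a share near the background of 57.3% of protein-coding genes, and were led by Celsr2 with 29.9 and 27.7 TPM, Fat1 with 22.2 and 20.7 TPM, and Ncam1 with 20.3 and 19.4 TPM. Dscam, a self-avoidance gene of the mouse retina, had 0.07 and 0.04 TPM, and Dscaml1 had 0.52 and 0.06 TPM. Of these 18 genes 16 were higher in replicate 1, against 50.3% of all genes compared, and 4 differed by over 2-fold, against 3.28%. Chl1, the highest ratio beside Dscaml1, had 174 and 22 counts.

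Most genes beside the arrays were higher than their clustered neighbours. Of 18 flanking genes found, 16 were detected, against a background of 57.3% of protein-coding genes. The median of the 18 was 14.5 ± 1.33 TPM, with the highest levels in Ndufa2 (336.6 and 320.3 TPM), Slc35a4 (170.3 and 168.9 TPM) and Hdac3 (152.2 and 154.6 TPM). The intronless gene Taf7, which lies between the beta and gamma arrays, had 16.47 and 18.02 TPM. Its neighbour Slc25a2 had 0.31 and 0.47 TPM, and Cd14, further away, had 0.76 TPM in both libraries.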

How the data were processed

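For each of the 2 libraries there is 1 table of genes and 1 of transcripts, made on assembly mm10 with annotation M4 per the notes deposited beside them. The sources used here name neither aligner nor quantification tool. Expected counts, as the authors deposited them, are reads estimated for a gene or transcript and are not normalized. TPM and posterior mean TPM were normalized by the authors over all 69691 rows, and FPKM values are a second length-adjusted unit, per the file headers. The percent that a transcript holds of its gene's TPM was also taken as deposited. The deposited bounds of the TPM signal state no level and were not used for any statement.

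Symbols, transcripts and exons came from GENCODE M21 on GRCm38 (the assembly called mm10), and all 88 transcripts of members had the same length there. The levels are deposited TPM. Constant exons were found as exon blocks shared by members of a cluster. Ratios used expected counts plus 0.5 over TMM library sizes from rounded counts (edgeR 4.0.16, R 4.3.3), with intervals from the exact binomial of the pair of counts. The tables held 41537304 and 38012457 expected counts in annotated genes of replicates 1 and 2. CPM was computed from expected counts as an alternative. A count was called whole within 0.005. Python 3.11.15 with pandas 2.3.3 and scipy 1.17.1 did the rest, and the ratio step was tested on simulated data.

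Genes given in full were the 3 highest and 3 lowest detected members of each cluster, members under 1 TPM, C-type genes, genes past 2-fold and genes with different leading transcripts, and of other lists the 3 highest and up to 3 under 1 TPM. Others were chosen after their values were seen: Pcdhga7, Pcdhga10, Pcdhga11, Pcdhga12, Pcdhgb5, Pcdhgb7, Dnmt3b, Smchd1, Adam10, Ptk2 and Taf7. The members and lists were chosen with earlier results of these data known.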

Additional observations from a re-analysis of the deposited data

How the results depend on the processing

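No paired analysis was possible because the 2 libraries form a single group. The order gamma over beta over alpha held in each alternative run, and the sizes moved. Gamma minus beta (3.46) was 1.45 with a pseudocount of 1 TPM, 4.34 with 0.01 TPM, 3.64 with means over members, 3.12 with FPKM and 4.33 with CPM, and 3.33 to 3.58 with 1 library left out. Alpha minus beta (-0.31) was -0.0503, -0.68, -0.38, -0.19 and -0.10 under the same 5 changes and -0.39 with posterior mean TPM, and -0.35 to -0.28 with 1 library left out. Gamma minus alpha (3.77) was 1.50, 5.02, 4.02, 3.31 and 4.43, and 3.68 to 3.86 with 1 library left out. Clustered minus the other protocadherins (-3.55) was -1.87 and -4.04 with the pseudocounts, -2.90 with means, -3.33 with FPKM, -3.39 with posterior mean TPM, -0.48 over members at 1 TPM or more only, and -3.64 to -3.46 with 1 library left out. C-type minus alternate (-0.20) turned to 3.79 over members at 1 TPM or more only, 1.93 with means, 0.30 with posterior mean TPM and 0.23 with CPM, and was -0.466 to 0.0682 with 1 library left out; the cause was not tested. The alpha share was 1.35% with CPM and 0.771% to 1.23% by library, and the beta share 2.30% to 2.99%. An alternative chosen after seeing the data, without mostly constant transcripts, gave a beta share of 3.38% and a gamma share of 95.4%. It took away the TPM of these transcripts and did not divide their reads again. The lower gamma share was therefore fixed in advance. With all transcripts the gamma share was 95.8% to 96.9% by library. Detected members (18) were 10 at 2 TPM, 33 at 10 expected counts and 18 to 19 with 1 library left out. Members past 2-fold (5) were 0 at a mean count of 50 or more, 17 with no filter and 0 with TPM + 0.1, and the median log2 ratio of members (0.13) was 0.0496, 0.284 and 0.0825 under these changes. The contrasts between clusters over members at 1 TPM or more only gave no value, since no alpha or beta member was left. The remaining 44 of 82 alternative values moved by less than 1 SD between libraries or, for counts and ratios between libraries, by less than 1.5 times (DESeq2 1.42.0 size factors among them). Some of the 44 are contrasts and shares with 1 library left out. With 2 libraries such a value always lies within 1 SD of the mean, whatever the data. Without mostly constant transcripts the 3 gaps between clusters and clustered minus the other protocadherins were unchanged. The members altered stayed on the same side of each median. Depth limits alpha and beta genes most: at 3 counts a gene of their length stands at 0.0126 to 0.0636 TPM. The exception is Pcdhb2 in replicate 2, at 0.144 TPM, where part of its 2 counts went to a transcript of 511 bases. Differences between members under these levels were not detectable.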
